A study of Mus musculus with 98 samples.

Results

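Fgf4, the gene of fibroblast growth factor 4, and the 4 receptor genes Fgfr1, Fgfr2, Fgfr3 and Fgfr4 were followed through every count table of a study of mouse totipotent blastomere-like cells (TBLC). They were found by their gene symbols, and these 5 genes are 5 of the 21812 symbols in each table. All 5 passed the filter on low counts in each of the 8 tables that were tested. FGF4 is a secreted ligand that binds FGF receptors, receptor tyrosine kinases, together with heparan sulfate, and the receptors then drive the RAS and ERK kinase relay. In the mouse blastocyst, epiblast cells make FGF4 and the receptors on neighbouring cells read it, and strong FGF and ERK signalling goes with the primitive endoderm fate. FGFR1 is the receptor of both lineages there, whereas FGFR2 is known as a receptor of the primitive endoderm.

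TBLC are cultured mouse cells with transcripts of the early cleavage embryo, and here they were held in 2MYCP medium or moved to SLM medium, in which some cells come to express primitive endoderm genes. The groups used were PrE-T (CD140-positive) and EPI-T (CD140-negative) cells sorted after 3 days in SLM, with undifferentiated TBLC in the same table. Unsorted cells after 3 days in SLM (diffTBLC) and undifferentiated TBLC were read at 0, 1, 2 and 3 h of actinomycin D, which blocks transcription, and so were cells after 8 h in SLM (labelled TBLC_PlaB-) and their control in 2MYCP (TBLC_Ctrl). Further actinomycin D courses in diffTBLC carried siRNA against Virma with the control siNC1, or against Igf2bp3 with the control siNC2, and a steady-state set carried siVirma, siMettl3 or siNC. RNA recovered with an antibody to IGF2BP3 or YTHDF2 in diffTBLC was read as the immunoprecipitate (IP) and its input. No IP with a control antibody is among the samples, so binding cannot be told from unspecific recovery. Virma and Mettl3 encode parts of the complex that writes the RNA mark m6A, and Igf2bp3 and Ythdf2 encode proteins that read it. Every group had 2 libraries, which the labels do not tie to separate cultures, so the p-values rest on the spread of library pairs, which may be technical.

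Of the 98 samples, 86 had counts, in 9 tables whose library totals ran from 2483808 to 29471283. Levels are CPM, the count of a gene scaled to a fixed library size within its table, given as the mean ± SD of 2 libraries. Changes are on the log2 scale ± the standard error of the edgeR quasi-likelihood fit, and a change was called at a Benjamini-Hochberg adjusted p below 0.05 over all genes of the table. The sort matched its labels in Gata6, a primitive endoderm transcription factor, with a log2 change of 6.16 ± 0.10 in PrE-T over EPI-T. Virma was 0.50 ± 0.085 lower with siVirma at steady state, but Mettl3 was not distinguishable in the libraries labelled siMettl3 (-0.18 ± 0.15, adjusted p = 0.771).

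The promoters of the genes whose levels differed most between the cells are shown first, since the ligand and the receptors Fgfr2, Fgfr3 and Fgfr4 went in opposite directions. Each is 250 bases before and 50 bases from the annotated start in the RefSeq annotation of GRCm38.p6, a build older than that of the counts. RefSeq sequences were at hand for 4 of the 5 genes, Fgfr1 not among them. Capitals mark the GC box (GGGCGG or its reverse complement), a motif of many promoters that lack a TATA box. The Fgf4 promoter lies at chr7:144861136-144861435 on the plus strand, that of Fgfr2 at chr7:130266759-130267058 on the minus strand, that of Fgfr3 at chr5:33721474-33721773 on the plus strand and that of Fgfr4 at chr13:55152568-55152867 on the plus strand.
Fgf4: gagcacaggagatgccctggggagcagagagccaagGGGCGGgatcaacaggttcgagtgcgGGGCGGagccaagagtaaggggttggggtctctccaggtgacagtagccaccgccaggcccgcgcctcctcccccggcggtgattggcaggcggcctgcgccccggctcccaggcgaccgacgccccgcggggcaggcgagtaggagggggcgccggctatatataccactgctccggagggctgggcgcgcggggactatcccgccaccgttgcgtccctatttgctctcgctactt
Fgfr2: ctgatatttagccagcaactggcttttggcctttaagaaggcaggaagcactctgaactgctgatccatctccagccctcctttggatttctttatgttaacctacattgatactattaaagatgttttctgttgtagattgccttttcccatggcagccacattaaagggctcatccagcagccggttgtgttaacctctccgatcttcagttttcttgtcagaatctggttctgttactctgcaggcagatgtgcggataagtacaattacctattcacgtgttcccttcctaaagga
Fgfr3: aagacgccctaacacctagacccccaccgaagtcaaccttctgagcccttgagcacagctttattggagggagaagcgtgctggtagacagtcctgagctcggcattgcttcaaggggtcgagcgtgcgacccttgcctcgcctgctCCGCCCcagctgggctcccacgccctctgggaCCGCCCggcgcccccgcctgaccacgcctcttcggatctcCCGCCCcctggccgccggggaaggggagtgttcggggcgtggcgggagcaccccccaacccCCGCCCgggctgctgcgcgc
Fgfr4: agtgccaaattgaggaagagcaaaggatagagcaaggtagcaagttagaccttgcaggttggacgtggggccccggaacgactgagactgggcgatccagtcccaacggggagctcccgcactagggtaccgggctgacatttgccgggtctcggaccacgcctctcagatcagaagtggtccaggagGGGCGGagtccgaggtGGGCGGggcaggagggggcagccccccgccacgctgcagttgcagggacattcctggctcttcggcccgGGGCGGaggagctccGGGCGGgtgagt
The Fgf4 window held 2 GC boxes, the Fgfr3 window 4, the Fgfr4 window 4 and the Fgfr2 window 0. Guanine and cytosine made up 69.7% of the Fgf4 window, 69.7% of the Fgfr3 window and 65.3% of the Fgfr4 window, but 43.7% of the Fgfr2 window. Fgfr3 has a second annotated start, whose window held 2 GC boxes. The TATA box was searched only as TATAAA, and the Fgf4 window does hold the letters TATATA, so these windows are not shown to lack one. On both strands of each window TATAAA itself was not found. Nor was part of the octamer site, which was searched as TTTGCAT in the same windows. The core of the Sox site was likewise searched as ACAATG without a match. A GATA site was searched as AGATAA, again with no match in these windows. Among 32851 promoter windows of the same length, 35.7% hold a GC box. The letters TATAAA are in 13.6% of them, the octamer part in 4.63%, the Sox core in 12.6% and the GATA site in 11.2%. A match is a description of letters and not a binding site.

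To see how ligand and receptors divide between the sorted cells, PrE-T was compared with EPI-T. The ligand was on the EPI-T side: Fgf4 had 9.03 and 11.5 CPM in the PrE-T libraries, against 132 and 137 CPM in the EPI-T libraries. The PrE-T libraries were thus both low and the groups did not overlap, with a log2 change of -3.72 ± 0.098 (adjusted p = 2.06e-15). The receptors Fgfr2, Fgfr3 and Fgfr4 were on the PrE-T side, and Fgfr1, the remaining receptor, was lower there like the ligand. All 5 genes passed the threshold, 3 higher and 2 lower in PrE-T, where 68.6% of all tested genes passed. The median of the 5 changes was 2.29, against 0.026 over all genes.

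Among the receptors, Fgfr2 differed most. It had 47.2 and 43.6 CPM in PrE-T, against 2.83 and 1.44 CPM in EPI-T, so every PrE-T library was far above both EPI-T libraries. The change was 4.38 ± 0.21, or 20.8-fold (adjusted p = 5.28e-12). The EPI-T level of Fgfr2 rested on 69 and 30 counts, and without the first of these libraries the change was 4.97.

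Fgfr3 had 41.4 and 44.8 CPM in PrE-T, against 7.91 and 9.74 CPM in EPI-T, a change of 2.29 ± 0.15. Fgfr4 had 38.2 and 34.4 CPM in PrE-T, against 3.36 and 5.135 CPM in EPI-T, a change of 3.11 ± 0.20. In both genes the PrE-T libraries stood clear of the EPI-T libraries (adjusted p = 3.17e-10 for Fgfr3 and 3.62e-10 for Fgfr4). Fgfr1 had 26.1 and 24.1 CPM in PrE-T, against 65.9 and 67.3 CPM in EPI-T, and fell by 1.41 on the log2 scale (SE 0.078, adjusted p = 3.89e-11). It was nonetheless counted in every library of both groups, with at least 584 reads.

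Set against undifferentiated TBLC, the sorted cells placed each gene in an order. Fgf4 averaged 10.2 ± 1.7 CPM in PrE-T, 134.5 ± 3.4 CPM in EPI-T and 83.2 ± 2.0 CPM in TBLC, so that EPI-T stood above TBLC (0.69 ± 0.081) and PrE-T below it (-3.03 ± 0.098). Fgfr1 averaged 25.1 ± 1.4 CPM in PrE-T, 66.6 ± 0.98 CPM in EPI-T and 130.5 ± 2.2 CPM in TBLC, lower in both sorted groups than in TBLC (-2.38 ± 0.077 in PrE-T and -0.97 ± 0.072 in EPI-T). For Fgfr1 the TBLC libraries were thus above all 4 sorted libraries.

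Fgfr2 was intermediate in TBLC, at 45.4 ± 2.6 CPM in PrE-T, 2.13 ± 0.98 CPM in EPI-T and 16.2 ± 2.3 CPM in TBLC. It was higher in PrE-T than in TBLC (1.49 ± 0.16) and lower in EPI-T than in TBLC (-2.89 ± 0.22, or -3.48 without the first EPI-T library). Fgfr3 and Fgfr4 had another order, lowest in TBLC and higher in both sorted groups. Fgfr3 averaged 43.1 ± 2.5 CPM in PrE-T, 8.83 ± 1.3 CPM in EPI-T and 2.01 ± 0.24 CPM in TBLC, and Fgfr4 averaged 36.3 ± 2.7 CPM in PrE-T, 4.25 ± 1.3 CPM in EPI-T and 1.71 ± 0.54 CPM in TBLC. Both were far higher in PrE-T than in TBLC (4.42 ± 0.18 for Fgfr3 and 4.42 ± 0.23 for Fgfr4), and the smaller rises in EPI-T over TBLC were 2.13 ± 0.19 and 1.31 ± 0.26. All 5 genes passed the threshold in PrE-T against TBLC, where 67.3% of all genes passed, and all 5 in EPI-T against TBLC, where 64.9% passed. The highest adjusted p among these 10 changes was 0.000299, for Fgfr4 in EPI-T against TBLC, and the comparisons share libraries.

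**Figure D1:**
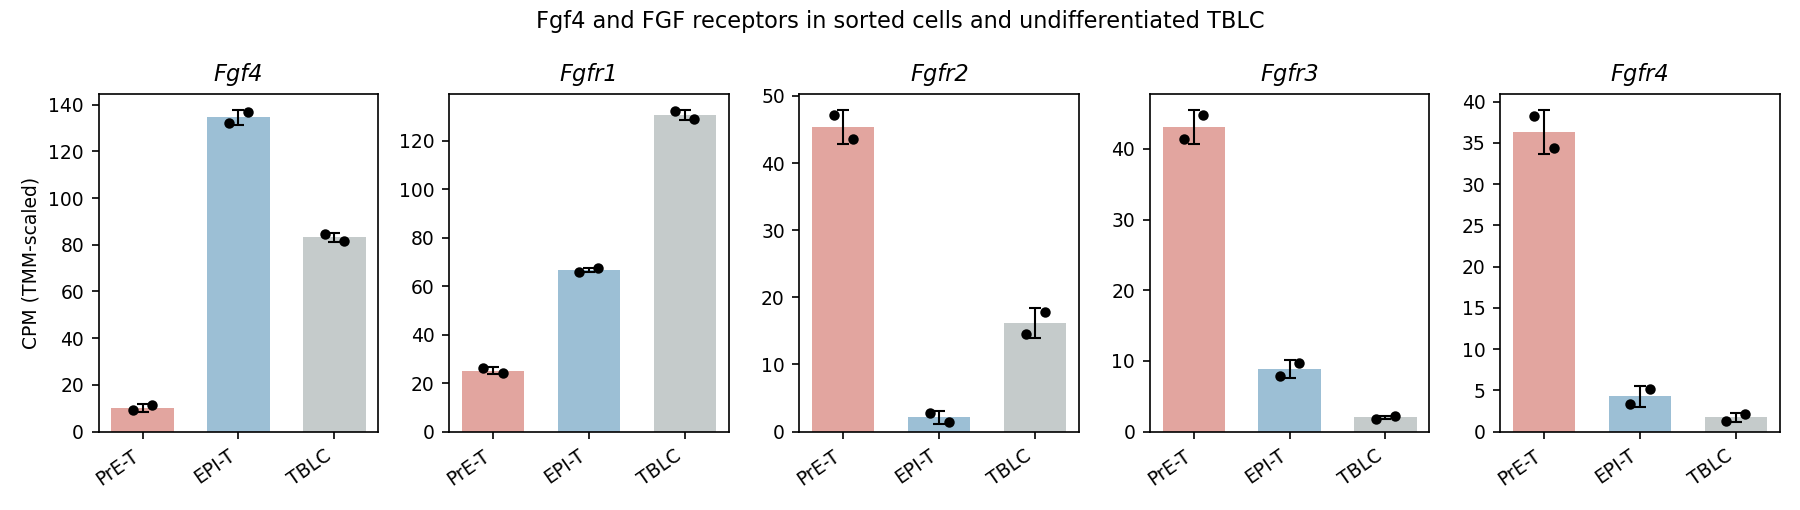
CPM of the 5 genes (vertical axes, each gene on its own scale) in PrE-T, EPI-T and undifferentiated TBLC. Bars are means, error bars SD and dots the 2 libraries: Fgf4 stands at 10.2 CPM in PrE-T and 134.5 CPM in EPI-T, while Fgfr2, Fgfr3 and Fgfr4 reach 36.3 to 45.4 CPM in PrE-T.

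The other pathway genes are read against the 68.6% of all genes that passed between the sorted cells, and no list was tested as a whole. Of 17 other secreted FGF ligands 9 could be tested, 5 higher and 3 lower in PrE-T, with a median of 2.23. Fgf3 stood at 58.9 CPM in PrE-T and 0.613 CPM in EPI-T (6.56 ± 0.23), and Fgf10, a ligand of the IIIb form of FGFR2, at 68.6 CPM in PrE-T and 3.94 CPM in EPI-T (4.11 ± 0.15). Fgf17 went with Fgf4, at 1.05 CPM in PrE-T and 18.4 CPM in EPI-T (-4.13 ± 0.30). The ligands therefore did not all lie on the EPI-T side.

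Of 25 tested coreceptor and heparan sulfate genes, 15 were higher and 4 lower in PrE-T (median 0.68). The coreceptor gene Klb, whose product binds FGFs of the endocrine group with an FGF receptor, was 8.01 ± 0.18 higher, on 7 and 21 counts in EPI-T, and 7.32 and 9.11 higher without either of these libraries. The heparan sulfate proteoglycan gene Sdc4 was 4.19 ± 0.077 higher and the receptor-binding membrane protein gene Flrt3 4.83 ± 0.099 higher. Of 20 genes of the adaptors and the RAS and ERK relay, 6 were higher and 8 lower (median -0.11), among them the kinase genes Mapk3 (1.60 ± 0.10) and Braf (-1.60 ± 0.080). Of 11 ERK feedback and response genes, 1 was higher and 7 were lower in PrE-T (median -0.84): the phosphatase gene Dusp4 rose by 2.78 ± 0.086, and the inhibitor gene Spred1 (-2.45 ± 0.069) and the transcription factor gene Etv5 (-1.90 ± 0.060) fell.

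Markers of cell types moved with these groups. The summed level of 10 primitive endoderm markers was 16540 to 16590 CPM in PrE-T, 191 to 194 CPM in EPI-T and 1383 to 1423 CPM in TBLC. Of 9 fibroblast and feeder markers, 8 were higher in PrE-T against EPI-T, with sums of 173 to 176 CPM in PrE-T, 44.8 to 45.2 CPM in EPI-T, where 1 marker was at 0, and 1003 to 1032 CPM in TBLC. The trophectoderm markers summed to 537 to 584 CPM in PrE-T, 44.7 to 55.6 CPM in EPI-T and 149 to 155 CPM in TBLC. Of 9 epiblast markers, 1 was higher and 8 lower in PrE-T against EPI-T, with sums of 706 to 722 CPM in PrE-T, 2586 to 2648 CPM in EPI-T and 1181 to 1185 CPM in TBLC. The part of these markers in the levels of the ligand and receptors was not tested. In such bulk libraries, fewer cells of a type and less RNA per cell cannot be told apart.

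To see whether the unsorted culture changed in the same genes, diffTBLC was compared with TBLC at 0 h of actinomycin D. The ligand and Fgfr1 were lower in diffTBLC and the other 3 receptors were higher. Fgf4 had 178 and 183 CPM in diffTBLC, against 249 and 258 CPM in TBLC, and the groups did not overlap. The change was -0.49 ± 0.028 (adjusted p = 3.705e-28). Fgfr1 had 53.5 and 54.4 CPM in diffTBLC, against 85.1 and 85.6 CPM in TBLC, and also fell, by 0.66 on the log2 scale (SE 0.040).

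The other 3 receptors rose. Fgfr3 had 21.1 and 19.5 CPM in diffTBLC, against 1.11 and 0.804 CPM in TBLC, where it rested on 26 and 17 counts. Fgfr4 had 21.9 and 22.0 CPM in diffTBLC, against 1.54 and 1.18 CPM in TBLC. The TBLC libraries thus held few reads of both genes, 17 to 36 counts each, and the changes were 4.38 ± 0.14 for Fgfr3 and 4.00 ± 0.13 for Fgfr4. Fgfr2 had 12.1 and 11 CPM in diffTBLC, against 3.64 and 3.26 CPM in TBLC, a change of 1.74 ± 0.13. All 5 genes passed the threshold, 3 higher and 2 lower, with 82.5% of all genes past it and adjusted p of at most 1.59e-22 among the 5.

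The sorted and the actinomycin D tables were normalized separately, so their levels can be set side by side only loosely. Undifferentiated TBLC had 83.2 CPM of Fgf4 in the sorted table, 253 ± 6.2 CPM in the course with diffTBLC and 135 ± 0.15 CPM as TBLC_Ctrl. Fgfr2 in the same cells stood at 16.2 CPM, 3.45 ± 0.27 CPM and 5.88 ± 0.56 CPM. In the same order, the summed fibroblast and feeder markers were 1017, 326 and 980 CPM and the summed primitive endoderm markers 1403, 328.5 and 358 CPM, and their part in these levels was not tested.

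Among the other pathway genes in diffTBLC against TBLC, where 82.5% of all genes passed, 7 of 11 tested FGF ligands rose and 2 fell (median 1.68, against 0.024 over all genes). They included Fgf15 (4.89 ± 0.18), the mouse counterpart of human FGF19, Fgf3 (3.11 ± 0.11) and Fgf10 (1.68 ± 0.065). Of 25 coreceptor and heparan sulfate genes 10 rose and 11 fell, with Klb (3.85 ± 0.13), Gpc3 (2.07 ± 0.059) and Flrt3 (1.76 ± 0.059) among the rises. Of 20 relay genes 6 rose and 10 fell, Mapk3 rising by 1.51 ± 0.042. Of 11 ERK feedback and response genes 7 rose and 4 fell, with the feedback inhibitor gene Spry4 up by 3.64 ± 0.043, the transcription factor gene Etv4 by 2.60 ± 0.038 and the ERK phosphatase gene Dusp6 by 1.25 ± 0.040. The 10 primitive endoderm markers summed to 3534 to 3548 CPM in diffTBLC and 326 to 331 CPM in TBLC, and all 10 rose. Of 9 fibroblast and feeder markers 1 rose and 7 fell, with sums of 190 to 197 CPM in diffTBLC and 321 to 331 CPM in TBLC. Of 9 epiblast markers 5 rose and 4 fell, with sums of 4000 to 4029 CPM in diffTBLC and 3085 to 3101 CPM in TBLC. Of 7 tested trophectoderm markers 4 rose and 2 fell, with sums of 160.0 to 167 CPM in diffTBLC and 68.0 to 68.25 CPM in TBLC. The part of these markers in the levels of the ligand and receptors was not tested.

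After 8 h in SLM, none of the 5 genes differed at 0 h between TBLC_PlaB- and TBLC_Ctrl in edgeR, at adjusted p of at least 0.654. The count was 0 at an unadjusted p below 0.05 and 0 in DESeq2, which gave no adjusted p for 3 of the 5, while 1.25% of all genes passed in edgeR. Fgf4 had 142 and 128 CPM in TBLC_PlaB-, against 135.3 and 135.5 CPM in TBLC_Ctrl, so the control libraries lay between those in SLM. Fgfr1 had 131 and 132 CPM in TBLC_PlaB-, against 132 and 134 CPM in TBLC_Ctrl. Fgfr2 had 4.96 and 6.51 CPM in TBLC_PlaB-, against 6.28 and 5.49 CPM in TBLC_Ctrl, again overlapping. Fgfr3, on 6 to 16 counts in these 4 libraries, and Fgfr4, on 19 to 38 counts, also did not pass (-0.18 ± 0.45 and 0.44 ± 0.27), and only changes large against these errors could be told at this depth. Over 1 to 3 h of actinomycin D, Fgfr1 (0.07 ± 0.020, adjusted p = 0.00634) and Fgfr2 (0.35 ± 0.093, adjusted p = 0.0032) were higher in TBLC_PlaB- and 3 genes did not pass, where 20.7% of all genes did. DESeq2 called 0 of the 5 and gave no adjusted p for 3, Fgfr2 among them, with Fgfr1 at an adjusted p of 0.0855, and Fgfr1 was lost without 1 of 2 libraries (0.05 without the first TBLC_Ctrl or the second TBLC_PlaB- library at 2 h).

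With transcription blocked, Fgf4 fell in both diffTBLC and TBLC. A slope is the log2 change in level per hour of actinomycin D, relative to the centre of all transcripts, since no spike-in is described. Fgf4 in diffTBLC had 178 and 183 CPM at 0 h, 63.9 and 64.1 CPM at 1 h, 44.2 and 42.8 CPM at 2 h and 34.2 and 31.8 CPM at 3 h. In TBLC it had 249 and 258 CPM at 0 h, 138 and 143 CPM at 1 h, 66.2 and 60.5 CPM at 2 h and 41.3 and 44.6 CPM at 3 h. At each hour the diffTBLC libraries were below the TBLC libraries, and the libraries of successive hours did not overlap within either arm. The slopes were -0.83 ± 0.064 in diffTBLC and -0.89 ± 0.063 in TBLC.

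The 2 courses of Fgf4 differed in shape. After 1 h, 35.5% of the 0 h mean was left in diffTBLC and 55.5% in TBLC, and after 3 h 18.3% was left in diffTBLC and 16.9% in TBLC. The difference of the slopes over 0 to 3 h was 0.06 ± 0.090 (adjusted p = 0.754). Taken over the first hour alone, a setting added after the values were seen, the difference was -0.65 (edgeR adjusted p = 2.72e-19). Over 1 to 3 h it was 0.40 (edgeR adjusted p = 2.31e-06). Of 14463 genes tested, 3170 were called over the first hour and 4725 over 1 to 3 h. The direction therefore turned with the hours used. In diffTBLC the summed primitive endoderm markers went from 3541 CPM at 0 h to 4877 CPM at 1 h. The summed epiblast markers went from 4015 to 3855 CPM there. In TBLC these sums went from 328.5 to 357 CPM and from 3093 to 2981 CPM. The part of these markers in the first hour of Fgf4 was not tested. In the other 6 arms, which include diffTBLC with either control siRNA, 54.2% to 64.5% was left at 1 h. Whether the first hour of diffTBLC differs from that of diffTBLC with siRNA was not tested, since the arms are in separate tables.

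Fgf4 fell past the threshold in all 8 arms. Its slopes were -0.82 ± 0.029 in TBLC_PlaB- and -0.79 ± 0.029 in TBLC_Ctrl. They were -0.74 ± 0.036 with siVirma and -0.78 ± 0.036 with siNC1, and -0.76 ± 0.045 with siIgf2bp3 and -0.79 ± 0.046 with siNC2. Of all genes, 59.4% had a slope past the threshold in diffTBLC, 65.2% in TBLC, 65.2% in TBLC_PlaB-, 61.9% in TBLC_Ctrl, 38.1% with siVirma, 45% with siNC1, 53.5% with siIgf2bp3 and 44.5% with siNC2. Differences in the slope of Fgf4 between the arms of a table did not pass in any of the 4 tables, at adjusted p of 0.641 to 0.841 outside the course with diffTBLC and TBLC. Over the first hour alone, the difference between siVirma and siNC1 was 0.23 (edgeR adjusted p = 0.00287), where 8129 of 13664 genes were called. The siNC1 libraries at 0 h and 1 h, which enter this difference, were unlike each other in cell type markers. With siNC1 the primitive endoderm markers summed to 2052, 3191, 2708 and 3517 CPM at 0, 1, 2 and 3 h. The epiblast markers summed to 4710, 3490, 4440 and 4404 CPM in the same order. The part of these markers in the difference of Fgf4 was not tested.

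**Figure D2:**
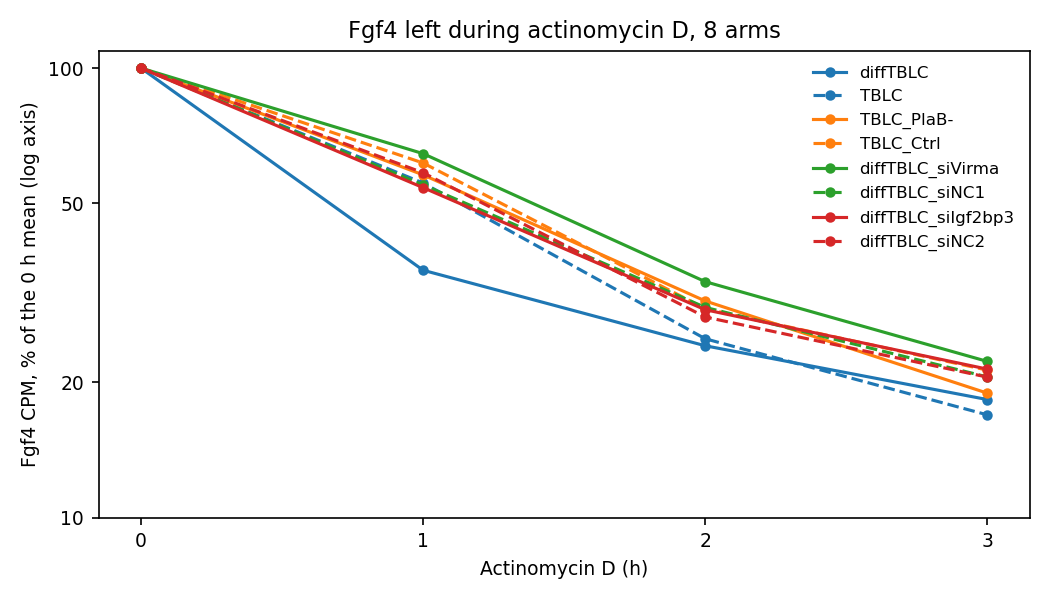
Mean Fgf4 CPM as a percentage of the 0 h mean of the same arm (vertical log axis) by hours of actinomycin D, with 1 line for each of 8 arms and 2 libraries behind each point. At 1 h diffTBLC stands at 35.5%, below the 54.2% to 64.5% of the other arms, and at 3 h all arms lie between 16.9% and 22.3%.

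The receptor transcripts had shallower slopes over the same hours. Slopes are given where the libraries of an arm average at least 50 counts, which leaves out Fgfr3 and Fgfr4 in TBLC, TBLC_PlaB- and TBLC_Ctrl. In diffTBLC, Fgfr2 fell by 0.24 per h on the log2 scale (SE 0.048, adjusted p = 0.000217) and Fgfr3 by 0.17 (SE 0.041, adjusted p = 0.00141), while Fgfr1 (-0.02 ± 0.022) and Fgfr4 (-0.01 ± 0.027) did not pass. Scaled to library totals, these 2 slopes were -0.14 and -0.13, past the threshold. Fgfr2 had 12.1 and 11 CPM at 0 h and 7.75 and 6.55 CPM at 3 h in diffTBLC, and Fgfr3 had 21.1 and 19.5 CPM at 0 h and 14.0 and 15.2 CPM at 3 h. For both genes the 3 h libraries were below all 0 h libraries.

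The diffTBLC arms with control siRNA, in other tables, gave partly other slopes. Fgfr2 fell with siNC1 (-0.24 ± 0.057, adjusted p = 0.00277) and did not pass with siNC2 (-0.06 ± 0.087), though over 1 to 3 h alone it fell there by 0.35 (adjusted p = 0.00805). Fgfr3 passed with neither (-0.0045 ± 0.047 with siNC1 and 0.07 ± 0.078 with siNC2). Fgfr1 rose with siNC1 (0.10 ± 0.028, lost without the first library at 0 h) and with siNC2 (0.105 ± 0.032, lost without either library at 0 h or the second at 3 h). Both rises of Fgfr1 missed the threshold when scaled to library totals (0.06 and 0.08). Fgfr4 rose with siNC1 (0.14 ± 0.032, adjusted p = 0.00197) and did not pass with siNC2 (0.05 ± 0.036). Differences between these arms and diffTBLC without siRNA were not tested.

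In TBLC, Fgfr2 fell by 0.16 per h (SE 0.066, adjusted p = 0.0352), which was lost without the first (-0.14) or second (-0.18) library at 0 h or the first at 3 h (-0.09), and Fgfr1 rose by 0.08 (SE 0.021, adjusted p = 0.00128). Fgfr1 also rose in TBLC_PlaB- (0.09 ± 0.015) and TBLC_Ctrl (0.04 ± 0.015, lost without the first library at 0 h or the second at 3 h). These 3 rises of Fgfr1 are relative to the other transcripts: scaled to library totals they were -0.03, -3.2e-04 and -0.03, none past the threshold. Over the same hours 8 of 9 fibroblast and feeder markers rose in TBLC, 9 of 9 in TBLC_PlaB- and 9 of 9 in TBLC_Ctrl, and their part in the slope of Fgfr1 was not tested. Fgfr2 fell in TBLC_Ctrl (-0.16 ± 0.053, lost without the first library at 0 h, -0.13) and did not pass in TBLC_PlaB- (-0.01 ± 0.049).

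Between the arms, Fgfr1 alone of the 3 genes with enough counts differed in slope between diffTBLC and TBLC, where 8.21% of all genes did. Its level over 0, 1, 2 and 3 h averaged 53.9, 59.1, 51.5 and 53.9 CPM in diffTBLC, against 85.4, 94.8, 97.3 and 103 CPM in TBLC. The difference was -0.10 ± 0.030 per h (adjusted p = 0.0373), and it was lost with 8 of 16 libraries left out, where it lay between -0.12 and -0.04, and in DESeq2 (-0.08, adjusted p = 0.0641). The values without either diffTBLC library at 3 h were -0.05 and -0.04. None of these 3 slopes differed between TBLC_PlaB- and TBLC_Ctrl in edgeR (1 of all 5 at an unadjusted p below 0.05, that of Fgfr2) and DESeq2 called 0, with no adjusted p for 3 of the 5, where 0.411% of all genes did.

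**Figure D3:**
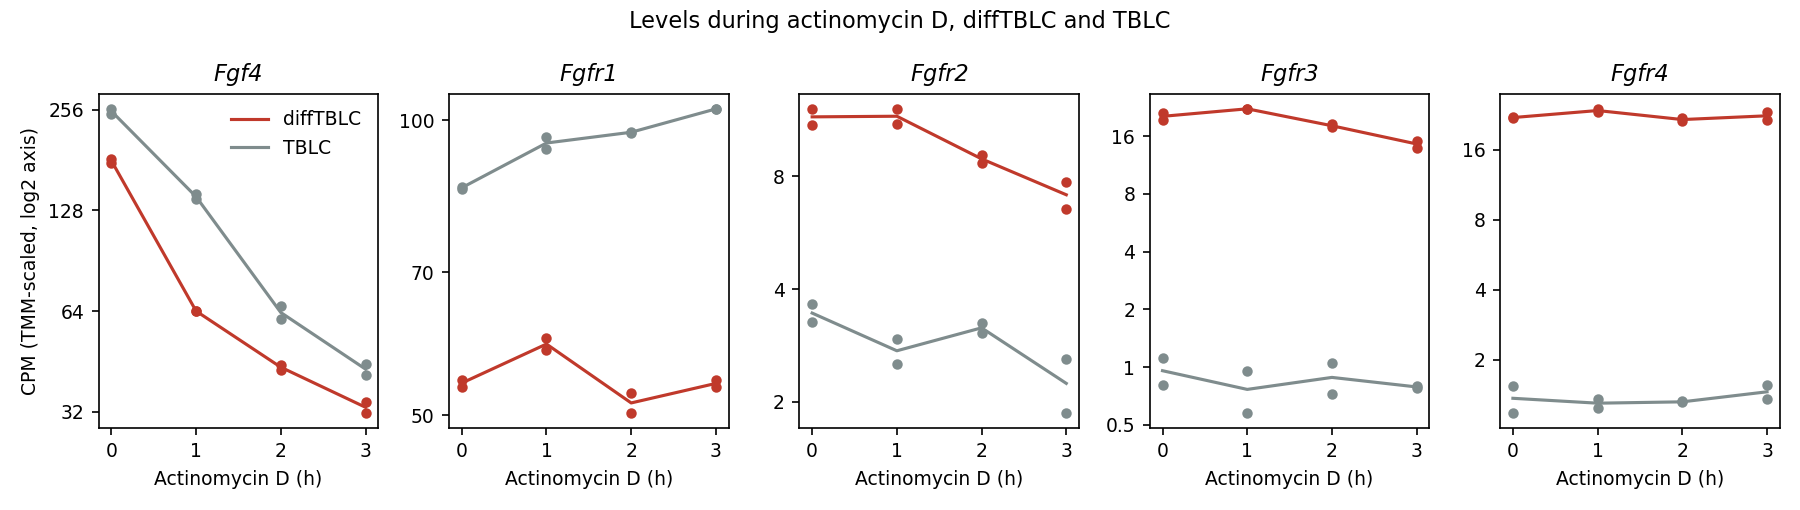
CPM (vertical log2 axes, each gene on its own scale) by hours of actinomycin D in diffTBLC and TBLC. Dots are libraries and lines join the means of 2: Fgf4 falls in both arms to 33.0 and 42.9 CPM at 3 h, and Fgfr3 and Fgfr4 are higher in diffTBLC at every hour.

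To see which of these transcripts were recovered with antibodies to m6A readers, IP and input of diffTBLC were compared. With the antibody to YTHDF2, a reader linked to the decay of m6A-marked RNA, Fgf4 stood far above its input. It had 1048 and 1007 CPM in the IP, against 139 and 146 CPM in the input, on 11527 and 12778 counts in the IP. The libraries of IP and input were far apart, and the change was 2.85 ± 0.059, or 7.20-fold (adjusted p = 8.06e-52).

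Fgfr3 had 36.9 and 34.7 CPM in the YTHDF2 IP, against 23.9 and 17.5 CPM in the input, a change of 0.80 ± 0.15 (adjusted p = 2.03e-06). Fgfr1 had 138 and 138 CPM in the IP, against 117 and 103 CPM in the input, a change of 0.34 ± 0.077 (adjusted p = 7.45e-05). In both genes the IP libraries were above both inputs. Fgfr2 had 5.64 and 5.51 CPM in the IP, against 3.24 and 4.82 CPM in the input, on 8 and 14 counts in the input, and did not pass (0.44 ± 0.33, adjusted p = 0.205). Fgfr4 had 9.55 and 8.51 CPM in the IP, against 11.8 and 11.35 CPM in the input, and did not pass either (-0.36 ± 0.22, adjusted p = 0.129). Of the 5 genes 3 were higher and 0 lower, with 79% of all genes past the threshold. Changes are relative to the other transcripts of the table, whose median was 0.019.

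With the antibody to IGF2BP3, a reader linked to the stability of m6A-marked RNA, the ligand went the other way. Fgf4 had 62.2 and 60.6 CPM in the IP, against 94.6 and 92.6 CPM in the input, and was lower in both IP libraries (-0.61 ± 0.064, adjusted p = 9.22e-21). Fgfr1 had 102 and 106 CPM in the IP, against 81.6 and 75.7 CPM in the input (0.40 ± 0.060, adjusted p = 4.97e-11). Fgfr2 had 31.3 and 31.4 CPM in the IP, against 23.9 and 19.9 CPM in the input (0.52 ± 0.11, adjusted p = 5.72e-06). These 2 receptors were higher in both IP libraries, by 0.21 and 0.32 when scaled to library totals.

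Fgfr3 had 21.3 and 22.1 CPM in the IGF2BP3 IP, against 22.5 and 19.0 CPM in the input, and Fgfr4 had 21.7 and 15.6 CPM in the IP, against 20.2 and 18.6 CPM in the input. Both overlapped and did not pass (0.06 ± 0.12 and -0.05 ± 0.13). In all, 2 of the 5 genes were higher and 1 lower, where 69.7% of all genes passed. The inputs of the 2 immunoprecipitations, in separately normalized tables, themselves differed in Fgfr2, at 4.03 ± 1.1 CPM for YTHDF2 and 21.9 ± 2.8 CPM for IGF2BP3. The primitive endoderm markers differed between these inputs too, with sums of 743 to 751.5 CPM for YTHDF2 and 6267 to 6381 CPM for IGF2BP3. In the IGF2BP3 IP, where Fgfr1 and Fgfr2 were higher, the primitive endoderm markers summed to 15280 CPM, with 8 of 10 higher and 1 lower, and 8 of 8 tested fibroblast and feeder markers were higher. In the YTHDF2 IP, 5 of 10 primitive endoderm markers were higher and 1 lower, and of 5 tested fibroblast and feeder markers 0 were higher and 3 lower. The part of these markers in the receptor values was not tested. The epiblast markers moved with the antibodies as well: 4 of 8 tested were higher and 3 lower with YTHDF2, and 1 of 9 higher and 6 lower with IGF2BP3, and their part in the enrichment of Fgf4 was not tested.

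**Figure D4:**
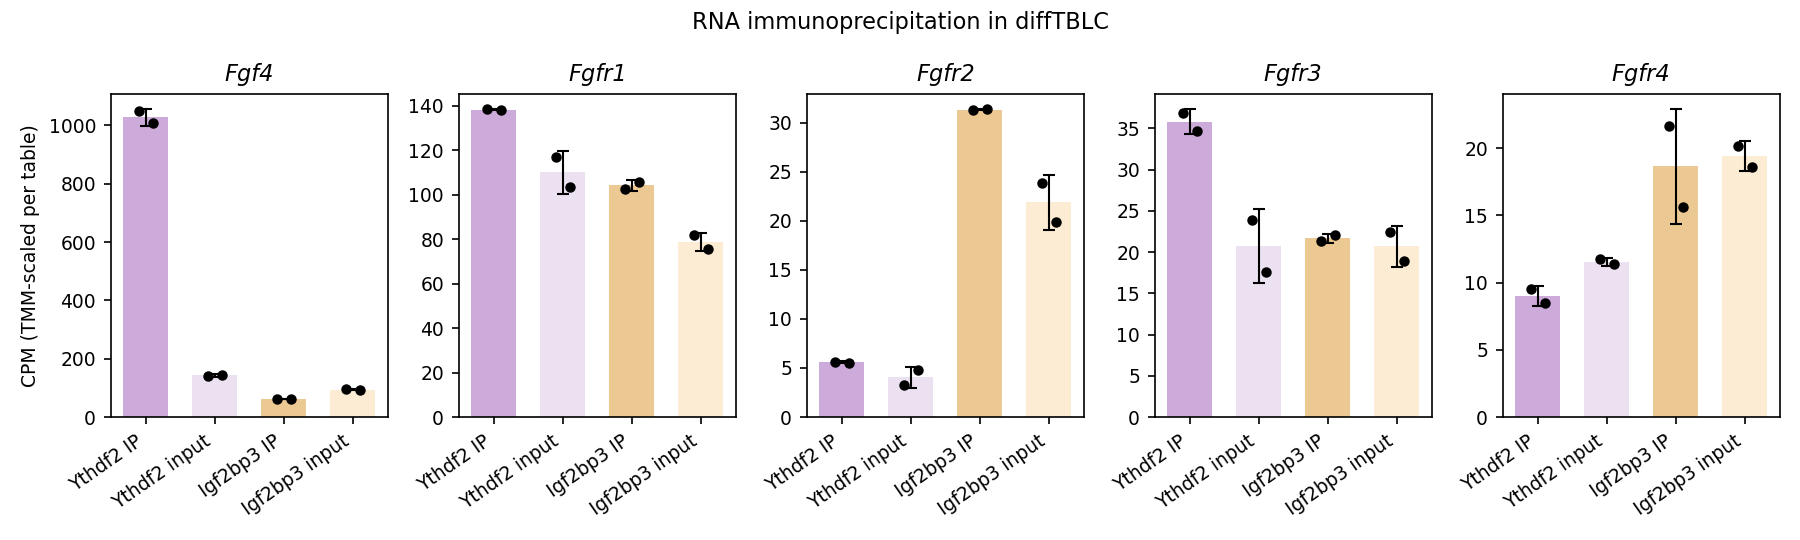
CPM of the 5 genes (vertical axes, each gene on its own scale) in IP and input of the YTHDF2 and IGF2BP3 immunoprecipitations, scaled within each table. Bars are means, error bars SD and dots the 2 libraries: Fgf4 averages 1027 CPM in the YTHDF2 IP and 61.4 CPM in the IGF2BP3 IP, each beside its input.

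To see whether the writer complex or a reader bears on these levels in diffTBLC, siRNA groups were compared with their controls. At steady state none of the 5 genes passed in edgeR with siVirma, where 7.11% of all genes did. At an unadjusted p below 0.05 there were 2, Fgfr2 and Fgfr4, and DESeq2 called 0 and gave no adjusted p for 2 of the 5. Fgf4 had 125 and 127 CPM with siVirma, against 124.5 and 119 CPM with siNC (0.05 ± 0.078). Fgfr4 had 10.1 and 8.76 CPM with siVirma, against 13.7 and 13.9 CPM with siNC (-0.55 ± 0.25, adjusted p = 0.18), and Fgfr2 had 14.1 and 16.8 CPM with siVirma, against 22.6 and 19.8 CPM with siNC (-0.45 ± 0.19, adjusted p = 0.156). In these 2 receptors the siVirma libraries were both below the siNC libraries without passing the test over all genes. Fgfr1 (0.15 ± 0.090) and Fgfr3 (-0.30 ± 0.22) did not pass either.

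In the libraries labelled siMettl3 none of the 5 genes passed in edgeR, where 0.865% of all genes did. None had an unadjusted p below 0.05, and DESeq2 gave no adjusted p for any of the 5. Their changes ran from -0.34 ± 0.19 for Fgfr2 to 0.20 ± 0.21 for Fgfr3, with Fgf4 at 112 and 116 CPM, against 124.5 and 119 CPM with siNC. The libraries of this table held 3968442 to 4750020 counts, fewer than those of the courses with siRNA. Of the 10 primitive endoderm markers 9 fell with siVirma and 7 in the libraries labelled siMettl3, and their part in the receptor values was not tested.

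In the actinomycin D course with siVirma, whose libraries were deeper, the receptors passed the threshold. The change of Fgfr1 was 0.68 ± 0.062 at 0 h there and 0.15 ± 0.090 at steady state. The controls were unlike in level too, with Fgfr1 at 33.5 ± 2.9 CPM with siNC1 at 0 h and 90.4 ± 9.6 CPM with siNC, scaled separately. The part of depth, or of other differences between these sets of libraries, was not tested. Virma itself was -0.27 ± 0.061 at 0 h and -1.04 ± 0.035 over 1 to 3 h. The siNC1 libraries moved unevenly between the hours. At 0 h, 10 primitive endoderm markers summed to 1184 to 1205 CPM with siVirma and 2016 to 2088 CPM with siNC1. At 1 h they summed to 1192 to 1202 CPM with siVirma and 3154 to 3227 CPM with siNC1. At 2 and 3 h the siNC1 sums averaged 2708 and 3517 CPM. Averaged over 1 to 3 h, Fgfr3 (-0.70 ± 0.068), Fgfr4 (-0.73 ± 0.059) and Fgfr2 (-0.58 ± 0.088) were lower with siVirma than with siNC1, while Fgfr1 (0.48 ± 0.034) and Fgf4 (0.14 ± 0.034) were higher. All 5 genes passed, where 71.5% of all genes did, with adjusted p of at most 0.000579. Fgfr4 had 7.49 to 9.70 CPM in the 6 siVirma libraries of 1 to 3 h, against 12.7 to 16.1 CPM in the 6 siNC1 libraries, without overlap. Fgfr1 had 53.8 to 59.6 CPM with siVirma, against 39.5 to 44.2 CPM with siNC1, also without overlap.

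At 0 h of the same course the receptors had the same signs. Fgfr1 had 54.3 and 52.5 CPM with siVirma, against 31.5 and 35.6 CPM with siNC1 (0.68 ± 0.062). Fgfr4 had 8.20 and 7.29 CPM with siVirma, against 12.75 and 11.5 CPM with siNC1 (-0.65 ± 0.11). Fgfr2 (-0.54 ± 0.13) and Fgfr3 (-0.40 ± 0.12) were lower too, though Fgfr3 did not pass when scaled to library totals (-0.21, adjusted p = 0.122). Fgf4 had 175 and 177 CPM with siVirma, against 181 and 181.5 CPM with siNC1, and did not pass (-0.04 ± 0.045, adjusted p = 0.413), but turned to 0.15 past the threshold with library totals (adjusted p = 0.0047). So 4 of the 5 genes passed, 1 higher and 3 lower, with 60.3% of all genes past the threshold. The 10 primitive endoderm markers were all lower with siVirma at 0 h and over 1 to 3 h, and their part in the receptor values was not tested. No slope differed between these arms for the 5 genes in edgeR (0 at an unadjusted p below 0.05), where 8.94% of all genes did, and DESeq2 called 0 of the 5.

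In the course with siIgf2bp3 the target gene went against the labels at 0 h: Igf2bp3 was 0.56 ± 0.079 higher at 0 h in the libraries labelled siIgf2bp3 and 0.58 lower over 1 to 3 h (-0.58 ± 0.041). The name siIgf2bp3 stands here for the libraries so labelled. Fgfr1 and Fgfr3 changed direction in the same way. At 0 h, Fgf4 (0.18 ± 0.038), Fgfr1 (0.32 ± 0.060) and Fgfr3 (0.45 ± 0.11) were higher with siIgf2bp3 than with siNC2, where the median of all genes was 0.141 and 65.7% of them passed. Averaged over 1 to 3 h, Fgf4 was still higher (0.19 ± 0.030), but Fgfr1 (-0.15 ± 0.035), Fgfr2 (-0.45 ± 0.074) and Fgfr3 (-0.32 ± 0.064) were lower, with 70% of all genes past the threshold. Fgfr4 passed at neither (-0.03 ± 0.095 at 0 h and -0.09 ± 0.055 over 1 to 3 h).

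The siNC2 libraries did not move steadily over the hours. At 0, 1, 2 and 3 h with siNC2, Fgfr2 averaged 8.37, 13.8, 9.40 and 8.62 CPM. Fgfr3 averaged 7.54, 12.9, 9.60 and 10.2 CPM in the same order. Fgfr3 had 10.4 and 10.2 CPM with siIgf2bp3 at 0 h, against 7.72 and 7.35 CPM with siNC2, and at 1 h it had 9.39 and 9.19 CPM with siIgf2bp3, against 12.6 and 13.2 CPM with siNC2. Fgfr2 had 9.71 and 9.48 CPM with siIgf2bp3 at 0 h, against 8.07 and 8.68 CPM with siNC2, and at 1 h it had 9.67 and 9.02 CPM with siIgf2bp3, against 13.2 and 14.4 CPM with siNC2. Between these hours the siNC2 libraries rose in both genes and the siIgf2bp3 libraries stayed near their 0 h values. The 10 primitive endoderm markers summed to 2388 to 2413 CPM with siIgf2bp3 at 0 h, against 2051 to 2073 CPM with siNC2, and to 2458 to 2487 CPM with siIgf2bp3 at 1 h, against 3885 to 3951 CPM with siNC2. At 2 and 3 h the siNC2 sums averaged 2999 and 4232 CPM.

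Fgf4 did not show such a turn. It had 196 and 194 CPM with siIgf2bp3 at 0 h, against 172 and 172 CPM with siNC2, and 42.5 and 41.1 CPM with siIgf2bp3 at 3 h, against 34.8 and 35.8 CPM with siNC2, without overlap at either hour. The call of Fgf4 at 0 h was lost with no filter (0.07), in DESeq2 (0.11) and in a fit of only the libraries compared (0.06), and that over 1 to 3 h with library totals (0.05, adjusted p = 0.131). Of the slopes, that of Fgfr1 differed between siIgf2bp3 and siNC2 (-0.17 ± 0.046 per h, adjusted p = 0.00755), where 52.4% of all genes differed, but not over 1 to 3 h alone (-0.08, adjusted p = 0.47).

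**Figure D5:**
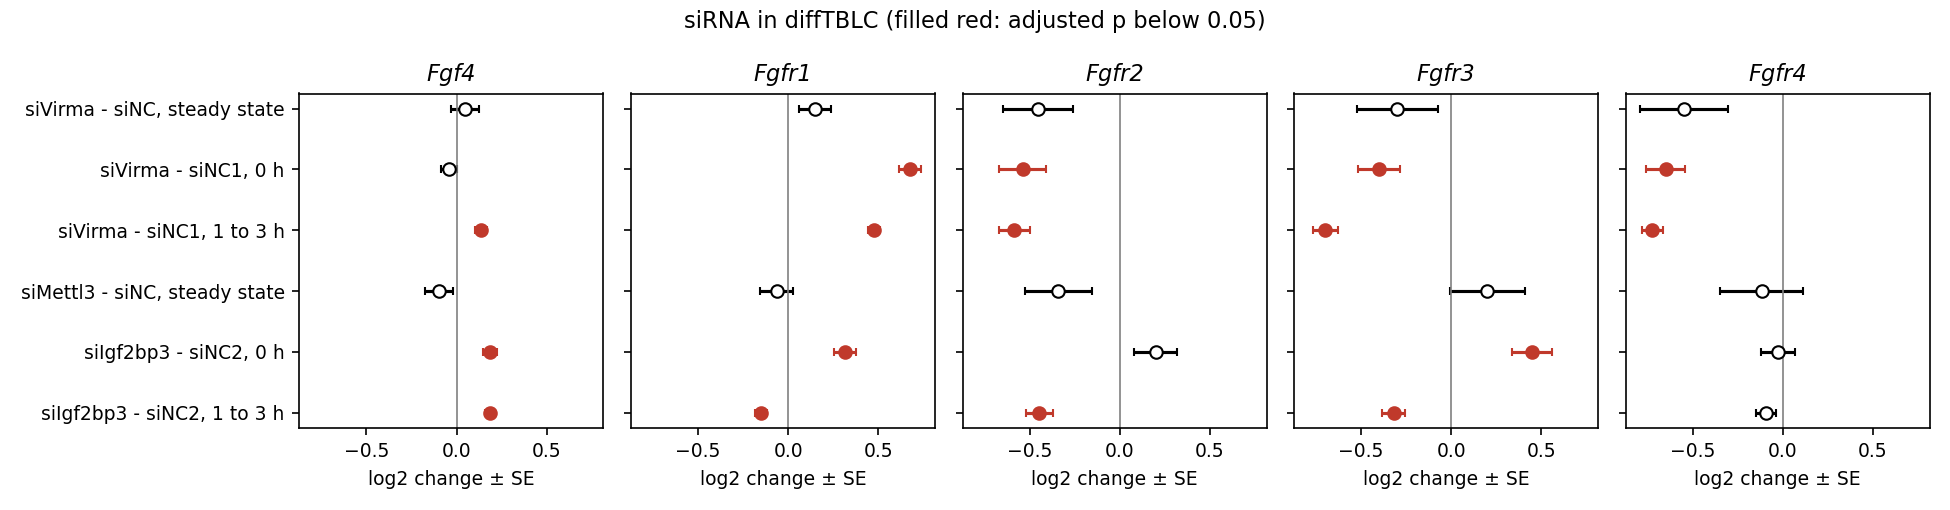
Log2 change ± SE (horizontal axis) of the 5 genes with each siRNA minus its control in diffTBLC, at steady state, at 0 h and averaged over 1 to 3 h of actinomycin D, from 2 libraries a group and hour. Filled red points have an adjusted p below 0.05: Fgfr4 is lower with siVirma at 0 h and over 1 to 3 h (-0.65 and -0.73), and Fgfr3 changes sign with siIgf2bp3 (0.45 and -0.32).

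Over 42 groups of the 8 tables, the genes whose pattern was most like each of the 5 were found among 11359 genes by the root mean square difference of log2 CPM after centring each gene within its table. The gene most like Fgf4 was Sox2, a pluripotency transcription factor gene, at 0.30, followed by Irf2bpl (0.34) and Arid5a (0.36). Fgfr3 and Fgfr4 were near each other, at 0.30, and Fgfr4 was the closest gene to Fgfr3, while Cotl1 (0.29) was closer to Fgfr4, before Fgfr3 and Mttp (0.34). Among the closest genes to Fgfr1 were Ptk7 and Ano8 (0.18 each), and those to Fgfr2 were Zfpm1 (0.22), Lrrc8c (0.22) and Arhgef28 (0.23). The SD of the genes' own patterns was 0.96 for Fgf4, 0.35 for Fgfr1, 0.67 for Fgfr2, 1.09 for Fgfr3 and 1.015 for Fgfr4, which was smallest for Fgfr1. The groups share tables and arms, and the likeness is a description.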

How the data were processed

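RNA-seq counts of mouse cells were deposited as raw counts per gene, unnormalized, in 9 tables. Per the submitters' processing notes, the build was mm39 and the tools named, with no role, are STAR 2.7.11b and Subread, with FastQC 0.12.1 and Trim Galore, and DESeq2, with no settings, so how reads shared by related genes were assigned is not given in the sources used here. Per the labels' protocols RNA was taken with TRIzol, and more than 1 library kit and instrument was used. Columns were matched to samples by name, and columns headed TBLC_S were read as TBLC_PlaB-, the arm of that table with no other columns. Each table was filtered by group, scaled by TMM and fitted with edgeR 4.0.16 (R 4.3.3, limma 3.58.1) over all groups of the table, with the quasi-likelihood test, Benjamini-Hochberg adjustment and a threshold of 0.05. Actinomycin D courses were fitted as group means and as linear slopes in hours. Members were named in all comparisons, up to 3 genes of each pathway list by lowest adjusted p, and 3 like genes per member, of which 1 is not reported here. Members and lists were chosen with earlier results of these data known. The slope minimum of 50 counts and the first-hour setting were chosen after seeing the data. Library totals per table ran from 2483808 to 29471283, which limits genes with few counts. Standard errors come from the fitted spread between libraries. DESeq2 1.42.0, other scalings, filters, hours, a replicate block and leaving out each library were tried. The code was tested on data simulated with known changes, where 3.1% to 10.2% of the calls of a comparison were false. The highest share, above the 0.05 threshold, was for PrE-T against EPI-T. There 60% of changes of 0.5 on the log2 scale were recovered. The same replicate number did not pair libraries (correlations of deviations -0.048 to 0.094). Libraries of 43 replicate pairs held no identical columns. The spread within a pair was read as chi-square per gene, near 1 where libraries differ only by the counting of reads. It ran from 1.107 in TBLC at 3 h to 10.56 in PrE-T. At 0 h it was 1.255 in diffTBLC and 1.118 in TBLC, so the small adjusted p there rest on a spread little above counting alone. Peak files were not used here.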

Additional observations from a re-analysis of the deposited data

Results flagged for a closer look

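The slope of Fgfr1 over the hours of actinomycin D differed between diffTBLC and TBLC by -0.104 per h on the log2 scale in edgeR (adjusted p = 0.0373), by a test of the difference itself. It was lost with 8 of 16 libraries left out, lying between -0.12 and -0.042, and in DESeq2 (-0.080, adjusted p = 0.0641). In diffTBLC with control siRNA, in other tables, the slope of Fgfr1 was 0.104 (siNC1) and 0.105 (siNC2) per h, against 0.084 in TBLC, and these were not tested against each other. Each of these rises missed the threshold when scaled to library totals. The slope of Fgfr1 also differed between siIgf2bp3 and siNC2 in diffTBLC, by -0.172 per h (edgeR adjusted p = 0.00755), again by a test of the difference. Of all genes, 52.4% differed there, and over 1 to 3 h alone Fgfr1 did not pass (-0.08, edgeR adjusted p = 0.47). With siNC2, Fgfr1 averaged 35.3, 43.7, 41.1 and 46.1 CPM at 0, 1, 2 and 3 h. The summed primitive endoderm markers of these libraries moved unevenly, at 2062, 3918, 2999 and 4232 CPM. Their part in the slope of Fgfr1 was not tested.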

How the results depend on the processing

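No direction of the 5 genes turned in the sorted comparisons or in diffTBLC against TBLC at 0 h under any setting tried. Elsewhere the cause of a change was not tested. The replicate block moved 1 count, the slopes called between siVirma and siNC1 (406, against 1221), and changed no other call; the replicate numbers mark nothing the labels name. DESeq2 called 279 genes for siVirma, 48 for siMettl3, 73 for TBLC_PlaB- at 0 h, 1531 over 1 to 3 h, 203 slopes for TBLC_PlaB- and 3172 for siVirma. Fitting only the libraries compared called 95 for TBLC_PlaB- at 0 h. Slope differences called for TBLC_PlaB- and siVirma were 27 and 1 with library totals and 110 and 6 with no filter. Over 1 to 3 h alone, slope differences called were 4725 for diffTBLC, 3118 for TBLC_PlaB-, 0 for siVirma and 0 for siIgf2bp3, and 3270 slopes in siNC2. From 3 h against 0 h they were 4023, 982 and 8019 for diffTBLC, TBLC_PlaB- and siVirma, with 8310 slopes in siVirma, 9240 in siNC1 and 9872 in siNC2. Over the first hour they were 3170, 2504 and 8129.

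With library totals, Fgfr3 was -0.13 in the IGF2BP3 IP. At 0 h Fgf4 (0.15) and Fgfr3 (-0.21) with siVirma, and Fgfr2 (0.28) and Fgfr4 (0.056) with siIgf2bp3, changed call or sign. Slopes of Fgfr1 were -0.034 in TBLC, -3.2e-04 in TBLC_PlaB- and -0.030 in TBLC_Ctrl. Slope differences were -0.107 for Fgfr1 in diffTBLC, -0.0089 for Fgf4 and -0.010 for Fgfr2 with siVirma, and -0.093 for Fgf4, -0.33 for Fgfr3 and -0.12 for Fgfr4 with siIgf2bp3. With no filter, Fgfr4 was 0.022 in the IGF2BP3 IP, Fgf4 0.069 with siIgf2bp3 at 0 h and the slope difference of Fgfr4 with siIgf2bp3 -0.021. With RLE size factors and in DESeq2 alike, the slope difference of Fgfr1 in diffTBLC was -0.080 and the slopes in diffTBLC were 0.0042 for Fgfr1 and 0.019 for Fgfr4. With RLE size factors, the slope of Fgfr3 in siNC1 was 3.2e-04. Fgf4 with siIgf2bp3 at 0 h was 0.11 in DESeq2 and 0.058 with only the libraries compared.

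Over 1 to 3 h, the slope of Fgfr3 in siNC2 was -0.18, and slope differences were 0.40 for Fgf4 in diffTBLC, -0.053 for Fgf4 and 0.013 for Fgfr1 with siVirma, and -0.081 for Fgfr1 and 0.067 for Fgfr2 with siIgf2bp3. From 3 h against 0 h, slopes were 0.0081 for Fgfr4 in diffTBLC, 0.033 for Fgfr3 in siNC1 and 0.011 for Fgfr2 in siNC2, and slope differences were 0.051 for Fgfr1 in TBLC_PlaB-, and -0.20 for Fgfr2 and -0.32 for Fgfr3 with siIgf2bp3. Over the first hour, they were -0.65 for Fgf4, -0.021 for Fgfr1 and 0.35 for Fgfr2 in diffTBLC, 0.23 for Fgf4, -0.23 for Fgfr1 and -0.13 for Fgfr2 with siVirma, and -0.11 for Fgf4, -0.75 for Fgfr2, -0.92 for Fgfr3 and -0.085 for Fgfr4 with siIgf2bp3.

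Leaving out 1 library at a time, genes called ran from 499 to 623 for siVirma, 31 to 51 for siMettl3 and 71 to 211 for TBLC_PlaB- at 0 h. Slope differences called ran from 641 to 1561 for diffTBLC, 8 to 178 for TBLC_PlaB-, 0 to 5136 for siVirma and 4603 to 8190 for siIgf2bp3. Fgfr1 with siMettl3 ran from -0.17 to 0.048. In the IGF2BP3 IP Fgfr3 ran from -0.055 to 0.19 and Fgfr4 from -0.31 to 0.16. In TBLC_PlaB- at 0 h Fgf4 ran from -0.081 to 0.065, Fgfr1 from -0.026 to 0.0025, Fgfr2 from -0.24 to 0.15 and Fgfr3 from -1.04 to 0.36, and over 1 to 3 h Fgfr4 from -0.063 to 0.15. Slopes in diffTBLC ran from -0.036 to 3.8e-04 for Fgfr1 and -0.015 to 0.027 for Fgfr4, that of Fgfr2 in TBLC_PlaB- from -0.062 to 0.028, that of Fgfr3 in siNC1 from -0.042 to 0.014, and in siNC2 those of Fgfr2 from -0.15 to 0.010 and Fgfr3 from -6.6e-05 to 0.105. Slope differences in diffTBLC ran from -0.12 to -0.042 for Fgfr1 and -0.14 to 0.027 for Fgfr2, and that of Fgfr2 with siVirma from -0.030 to 0.068. With siIgf2bp3, Fgfr4 at 0 h ran from -0.12 to 0.046, and slope differences from -0.25 to -0.14 for Fgfr3 and -0.014 to 0.028 for Fgfr4. The alternatives for m6A peaks were not run, as no annotation of the build was used here. Depth limits Fgfr3 and Fgfr4 in TBLC and Fgfr2 in the YTHDF2 input.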

Other observations

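A further table held 2 libraries of undifferentiated TBLC with no comparison group, of 5036913 and 5238475 counts, scaled apart from the other tables. Fgf4 stood at 89.7 and 92.8 CPM there, and Fgfr1 at 150.4 and 159 CPM. Fgfr2 stood at 15.5 and 17.6 CPM. Fgfr3 stood at 2.98 and 1.91 CPM, on 15 and 10 counts, and Fgfr4 at 2.18 and 3.06 CPM, on 11 and 16 counts.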
